A study of Mus musculus with 24 samples.

Results

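The genes described here encode 8 stress granule proteins: G3bp1, G3bp2, Tia1, Tial1, Caprin1, Usp10, Ddx6 and Tardbp. They were taken by name, by a rule that uses no measured value, although the list was drawn up with earlier results of these data known, and all probe sets that the platform annotation assigned to 1 of these genes alone were kept. This gave 28 of the 45037 probe sets tested, for 8 of 17097 named genes: 6 each for Caprin1 and Tia1, 5 for Tardbp, 4 for Tial1, 3 for Ddx6, 2 for G3bp1, and 1 each for G3bp2 and Usp10. Another 2 probe sets were assigned both to G3bp2 and to a second gene and were left out. The RNA came from cerebellum, brainstem and liver of old, symptomatic Atxn2-CAG42 Knock-In mice (CAG42) and wild type (WT) littermates, with 4 arrays for each of the 6 groups. In the CAG42 line an expanded CAG repeat sits in Atxn2 at its own locus, so that the endogenous promoter drives it, and per the study's methods the line was backcrossed into C57BL/6 and littermates came from heterozygous matings. The labels give neither sex nor zygosity, and nothing in them says whether equal replicate numbers in different tissues mark 1 mouse. The study itself uses the name CAG42 for homozygous mice, and names CAG42 and WT mice for its arrays.

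Stress granules are cytoplasmic assemblies of mRNA, stalled initiation complexes and RNA-binding proteins that form when translation initiation is blocked, most often through phosphorylation of eIF2alpha. Ataxin-2, the product of Atxn2, is itself found in them, and so is its partner, the poly(A)-binding protein PABPC1. G3BP1 and G3BP2 are the scaffolds that bring RNA and protein together, caprin-1 binds G3BP and favours assembly, and USP10, a deubiquitinase, competes for the same site on G3BP. TIA-1 and TIAR (the product of Tial1) are RNA-binding proteins with prion-like tails, DDX6 is an RNA helicase that is also central to P-bodies, where mRNA is silenced and decapped, and TDP-43 (the product of Tardbp) is the nuclear RNA-binding protein that aggregates in most amyotrophic lateral sclerosis (ALS). Assembly is driven by the proteins and their modification, so mRNA levels do not show whether granules were present.

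The promoters of the genes whose main probe sets differed most and least in size between cerebellum and liver are shown to set side by side the windows in front of them. RefSeq promoter sequences (GRCm38.p6) were found for 7 of the 8 genes, in 10 windows. The 250 bases before the start site of Tia1 (chr6:86403969-86404218, plus strand) and of G3bp1 (chr11:55469502-55469751, plus strand) follow. Capitals mark GC boxes, searched as GGGCGG on both strands. They also mark CCAAT boxes, for which the letters CCAAT were searched on both strands. TATA boxes, searched as TATAAA on both strands, are in capitals too. An E-box was looked for with the letters CACGTG.
Tia1: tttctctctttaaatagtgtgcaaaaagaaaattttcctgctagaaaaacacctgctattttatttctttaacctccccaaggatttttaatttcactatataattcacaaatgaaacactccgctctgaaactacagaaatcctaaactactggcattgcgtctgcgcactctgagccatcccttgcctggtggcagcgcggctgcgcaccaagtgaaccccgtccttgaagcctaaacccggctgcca
G3bp1: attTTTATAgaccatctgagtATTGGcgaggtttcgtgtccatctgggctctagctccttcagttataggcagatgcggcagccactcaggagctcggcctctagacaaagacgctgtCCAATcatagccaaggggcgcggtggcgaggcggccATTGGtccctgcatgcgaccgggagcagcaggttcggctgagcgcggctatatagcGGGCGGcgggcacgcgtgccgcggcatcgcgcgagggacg
The G3bp1 window held 3 CCAAT boxes, 1 GC box and 1 TATA box, none overlapping another, and 25 CpG pairs at a GC content of 62.0%. The Tia1 window held none of these motifs and 8 CpG pairs at a GC content of 44.0%. Over all 32851 promoter windows of this length, 33.8% held a CCAAT box, 32.7% a GC box, 12.4% a TATA box and 6.02% an E-box, and the median number of CpG pairs was 6. Of the 10 windows of these genes, 6 held a GC box, 2 a CCAAT box, 1 a TATA box and 0 an E-box. These matches describe letters in a window and say nothing of which factors bind there.

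The tissues carried their defining markers: the mean log2 intensity of 3 measured cerebellar granule cell markers was 11.82 to 12.12 over the cerebellum arrays, 7.59 to 8.78 over those of brainstem and 2.89 to 3.15 over those of liver, and that of 4 hepatocyte markers was 13.27 to 13.41 in liver and at most 6.13 in the brain tissues. Arrays of 1 group correlated at 0.992 or more in the brain tissues and at 0.986 or more in CAG42 liver, but only at 0.954 or more in WT liver. WT liver replicate 1 stood apart. It held the highest of the 4 WT liver values at 20 of the 28 probe sets, and at 44.3% of all probe sets. The brightest probe set of the targeted gene, Atxn2, averaged 9.98 in CAG42 and 9.98 in WT cerebellum, 10.15 and 10.30 in CAG42 and WT brainstem, and 8.53 and 8.52 in CAG42 and WT liver, and no Atxn2 probe set passed the limma test in any tissue (adjusted p at least 0.325). In brainstem all CAG42 values of the brightest one (9.9379 to 10.2472) lay just under all WT values (10.2515 to 10.3769). The other Atxn2 probe sets overlapped there, and 3.70% of all probe sets did not overlap in brainstem. The Atxn2 probe sets do not read the repeat length, so they do not check the genotype labels.

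The first question was whether the CAG42 allele altered these mRNAs in any of the 3 tissues. No probe set of the 8 genes passed the limma test in cerebellum, brainstem or liver. Values are RMA log2 intensities, on which a difference of 1 is a doubling, and a probe set was called where its p, adjusted by Benjamini-Hochberg over all 45037 probe sets, was under 0.05. The background was itself low, with 0.0444% of all probe sets called in cerebellum, 0.0155% called in brainstem and 0.147% called in liver, so a count of 0 of 28 is near what the rest of the arrays gave. An unadjusted p under 0.05 was reached by 0 members in cerebellum, 1 for brainstem and 2 for liver, beside 3.59%, 4.17% and 8.61% of all probe sets. Over the 28 probe sets, CAG42 minus WT had a median of -0.01 for cerebellum, 0.07 for brainstem and 0.04 for liver, against -0.01 in each tissue over all probe sets.

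**Figure D1:**
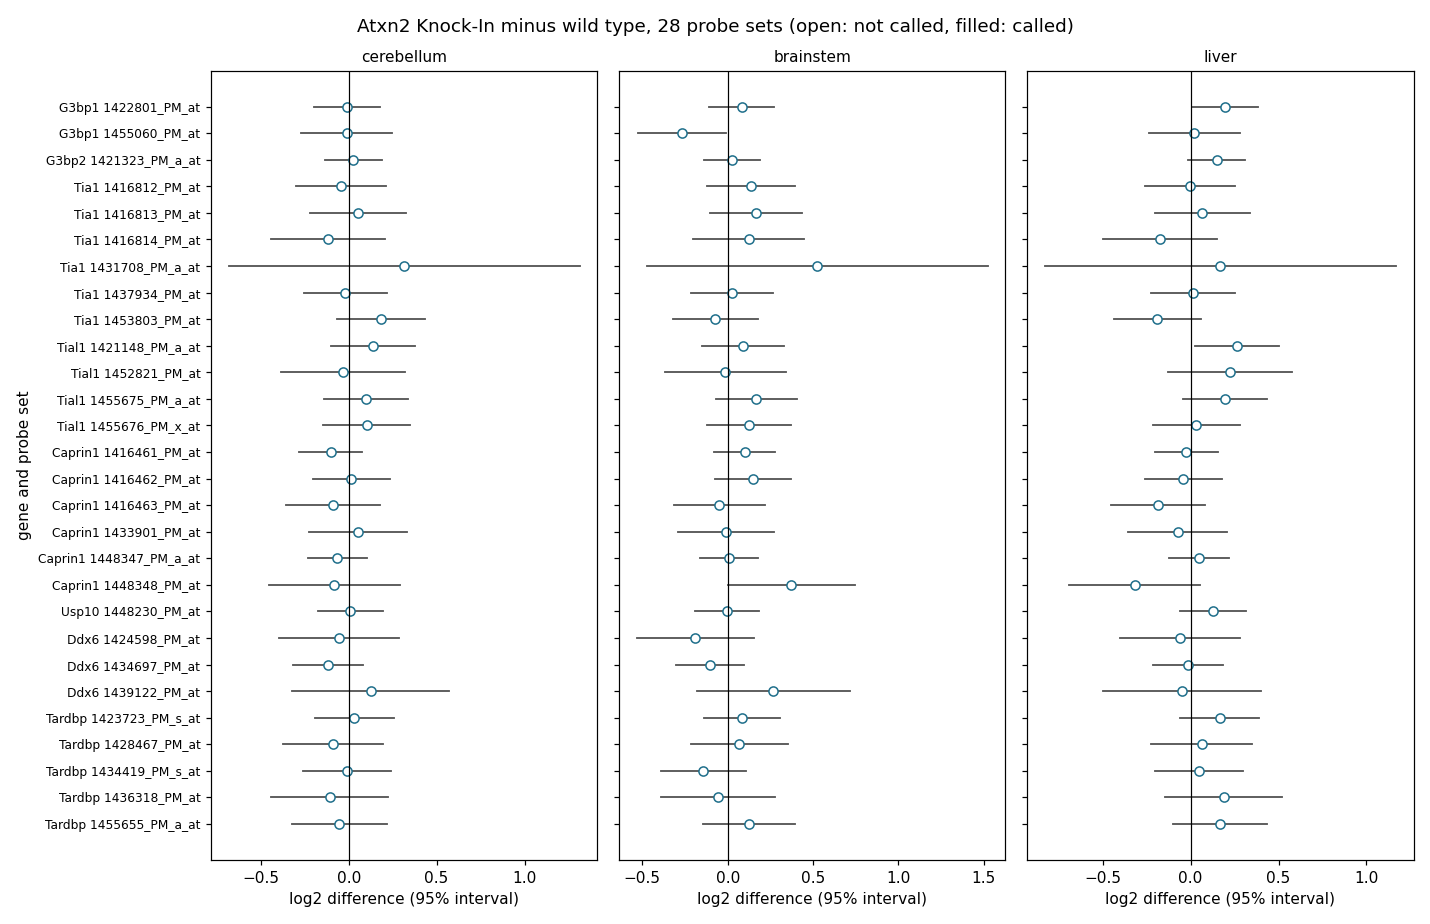
Log2 difference of CAG42 minus WT for each of the 28 probe sets (rows), with its 95% interval from the limma fit, in cerebellum, brainstem and liver (n = 4 arrays a group). All points are open, since 0 of 28 were called in each tissue, and the widest intervals belong to the Tia1 probe set 1431708_PM_a_at.

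The intervals show what size of change the arrays still allow. For the brightest, or main, probe set of each gene, the 95% intervals of CAG42 minus WT lay between -0.40 and 0.34 in cerebellum, between -0.53 and 0.40 in brainstem and between -0.40 and 0.43 in liver. In fold terms, the widest bounds were 0.759 to 1.26 in cerebellum, 0.691 to 1.32 in brainstem and 0.756 to 1.35 in liver. Over the members other than 1431708_PM_a_at of Tia1 the bounds were wider, -0.46 to 0.57 in cerebellum, -0.53 to 0.75 in brainstem and -0.69 to 0.58 in liver, and for that probe set they reached 1.52 in brainstem. A p that missed the threshold leaves room for changes within these bounds. The intervals are not adjusted for the number of probe sets, whereas the calls are, so an interval can leave out 0 without a call. That of the main G3bp1 probe set in liver, 0.01 to 0.38, is an example. The difference of the genotype effect between tissues was tested too. None of the 28 probe sets was called for cerebellum minus brainstem, for cerebellum minus liver or for brainstem minus liver (background 0.00222%, 0.00888% and 0.00888%), and 0, 1 and 1 reached an unadjusted p under 0.05, beside 1.68%, 3.98% and 4.69% of all probe sets.

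G3bp1, which encodes a scaffold of the granules, gave 2 probe sets that did not move alike. In liver the main one read 8.18, 8.30, 8.31 and 8.64 in CAG42 mice, against 8.41, 8.10, 8.0 and 8.15 in WT mice. All 4 CAG42 values were above 3 of the 4 WT values, and the groups overlapped through WT replicate 1. The difference was 0.19 ± 0.09 (SE, limma unadjusted p = 0.0444, adjusted p = 0.567). In brainstem the second probe set, 1455060_PM_at, read 5.62, 5.94, 5.72 and 5.48 in CAG42 mice, against 5.84, 6.02, 6.06 and 5.92 in WT mice. Here 3 of the 4 CAG42 values lay under every WT value and 1 lay among them, with a difference of -0.27 ± 0.13 (SE, limma unadjusted p = 0.0428, adjusted p = 1), whereas the main probe set differed there by 0.08 ± 0.09. In cerebellum both probe sets differed by -0.01.

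G3bp2, the paralogous scaffold, was read by a single probe set with little spread. It averaged 11.24 ± 0.05 in CAG42 and 11.22 ± 0.04 in WT cerebellum, and 11.74 ± 0.09 in CAG42 and 11.71 ± 0.05 in WT brainstem (SD, n = 4 each). In liver it read 9.55, 9.53, 9.52 and 9.79 in CAG42 mice, against 9.28, 9.44, 9.47 and 9.61 in WT mice, a difference of 0.15 ± 0.08 (SE, limma unadjusted p = 0.0709, adjusted p = 0.628). The groups overlapped in all 3 tissues.

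Of the G3BP partners, Caprin1 averaged 9.86 ± 0.06 in CAG42 and 9.93 ± 0.08 in WT cerebellum, 9.97 ± 0.08 in CAG42 and 9.96 ± 0.08 in WT brainstem, and in liver 10.36 ± 0.16 in CAG42 and 10.31 ± 0.10 in WT mice by its main probe set (SD, n = 4 each). Its 6 probe sets differed between genotypes by at most 0.37 in either direction, the largest being 1448348_PM_at in brainstem, at 5.34, 5.31, 4.75 and 5.47 in CAG42 mice against 5.38, 4.81, 4.45 and 4.72 in WT mice (limma unadjusted p = 0.0503, adjusted p = 1). That probe set differed the other way in liver, by -0.32 ± 0.18 (SE), and the groups overlapped in both tissues. Usp10 averaged 8.37 ± 0.04 in CAG42 and 8.36 ± 0.12 in WT cerebellum, 8.61 ± 0.05 in CAG42 and 8.61 ± 0.09 in WT brainstem, and in liver 7.78 ± 0.13 in CAG42 and 7.66 ± 0.20 in WT mice (mean ± SD, n = 4 each). The brain means of Usp10 differed by 0.01 or less.

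Tia1 and Tial1 held the 2 probe sets whose genotypes did not overlap, both in brainstem. The main probe set of Tia1 read 8.89, 8.86, 8.89 and 8.98 in CAG42 brainstem, against 8.78, 8.65, 8.80 and 8.83 in WT brainstem. That of Tial1 read 8.97, 8.88, 8.83 and 9.01 in CAG42 brainstem, against 8.82, 8.65, 8.80 and 8.75 in WT brainstem. Every CAG42 value was above every WT value, by narrow margins. The differences were 0.14 ± 0.12 for Tia1 and 0.17 ± 0.11 for Tial1 (SE, limma adjusted p = 1 each), and the exact two-sided permutation p was 0.0286 for each, the smallest that 4 against 4 arrays can give. Over all probe sets, 3.70% did not overlap in brainstem, 3.94% in cerebellum and 2.76% in liver, and 2 of 28 members in brainstem and 0 of 28 in the other tissues is close to that. The mean of 3 measured oligodendrocyte markers was higher in CAG42 brainstem, at 10.75 to 10.81, than in WT brainstem, at 10.52 to 10.69. Their single differences ran from 0.07 to 0.26, with 1 of the 3 at a limma unadjusted p under 0.05. Erythrocyte markers (3 of 4 measured) differed more but overlapped, at 10.25 to 11.08 in CAG42 brainstem and 9.58 to 10.79 in WT brainstem, and their median difference was 0.57 in brainstem and 0.62 in cerebellum. A limma unadjusted p under 0.05 was reached by 3 of these 3 in brainstem and 2 in cerebellum, beside 4.17% and 3.59% of all probe sets. The 4 choroid plexus markers had a median difference of 0.92 in cerebellum, with none called but 3 of the 4 at a limma unadjusted p under 0.05. Their single differences there ran from -0.31 to 0.99, so they did not all go the same way. The genotypes overlapped in the mean of these markers, which was at least 7.60 in CAG42 cerebellum and reached 8.19 in WT cerebellum. The part of these markers in the members' values was not tested.

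In liver, the Tial1 result turned on 1 array. The main probe set read 8.33, 8.47, 8.34 and 8.22 in CAG42 liver, against 8.61, 8.21, 7.85 and 7.90 in WT liver, and 1452821_PM_at read 6.69, 7.05, 7.01 and 7.01 in CAG42 liver, against 7.40, 6.88, 6.02 and 6.57 in WT liver. In both, WT replicate 1 was the highest of all 8 arrays. With all arrays the differences were 0.20 ± 0.11 and 0.22 ± 0.17 (SE, limma adjusted p = 0.683 and 0.795). Without WT liver replicate 1 both probe sets were called as higher in CAG42 liver, by 0.35 ± 0.09 and 0.45 ± 0.13 (SE, limma adjusted p = 0.0198 and 0.0451). They were then 2 of 28 members called, with 6.39% of all probe sets called in that fit, so that the members' share was near the background. The other 2 Tial1 probe sets, 1421148_PM_a_at and 1455676_PM_x_at, differed by 0.26 ± 0.12 and 0.03 ± 0.12 with all arrays (SE). Without WT liver replicate 1 they differed by 0.34 ± 0.12 and 0.18 ± 0.10 (SE, limma adjusted p = 0.0901 and 0.309) and were not called.

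**Figure D2:**
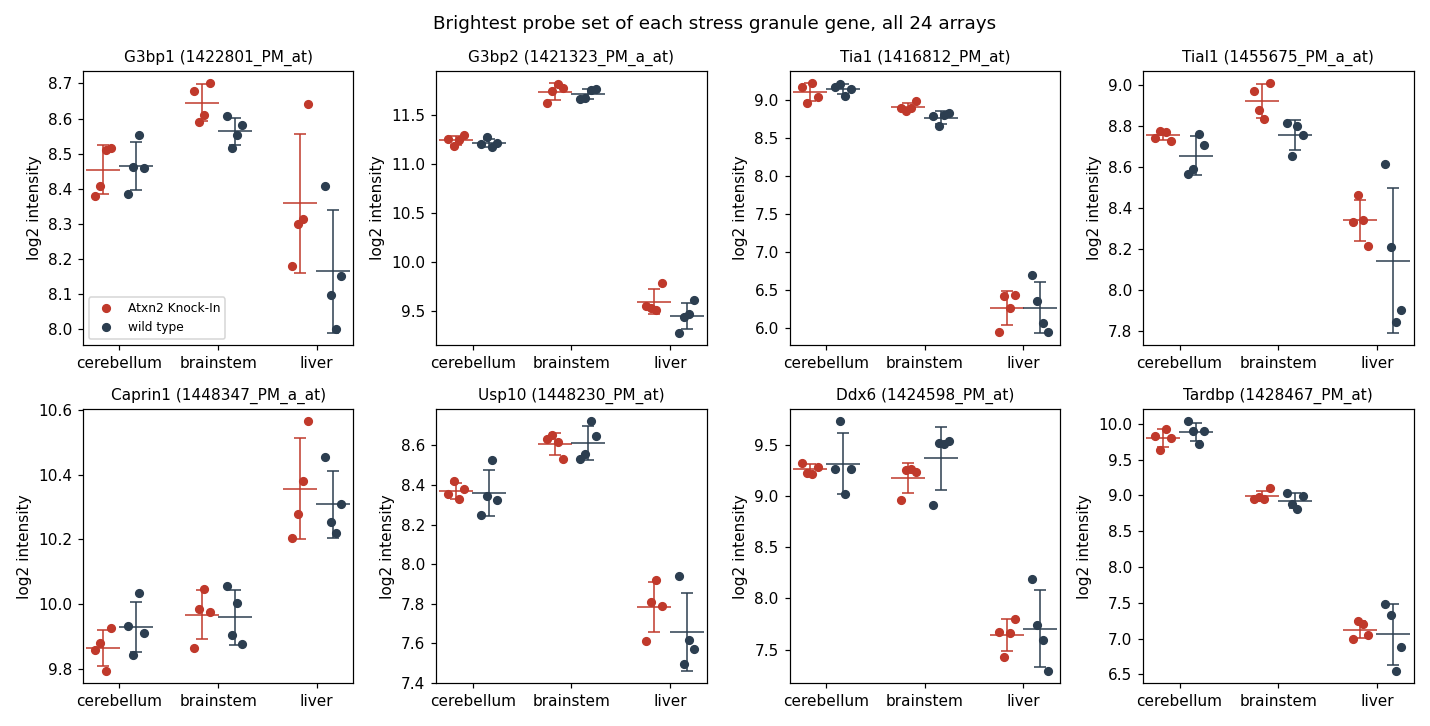
Log2 intensity of the main probe set of each of the 8 genes on all 24 arrays, by tissue, with CAG42 (red) left of WT (dark blue). Points are arrays, horizontal bars group means and whiskers 1 SD (n = 4), and the y axes differ and do not start at 0. The genotypes lie close together in each tissue. By group mean Caprin1 is highest in liver and the other genes are lowest there, but liver arrays overlap brain arrays for G3bp1 and Tial1.

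Ddx6, the P-body helicase, averaged 9.26 ± 0.05 in CAG42 and 9.32 ± 0.30 in WT cerebellum, 9.18 ± 0.15 in CAG42 and 9.37 ± 0.31 in WT brainstem, and in liver 7.64 ± 0.15 in CAG42 and 7.70 ± 0.38 in WT mice (mean ± SD, n = 4 each). The spread of this main probe set was wider in WT mice in all 3 tissues, and in WT brainstem it came from replicate 1, at 8.91 beside 9.51 to 9.54 for the others. CAG42 brainstem replicate 1 was low too, at 8.96 beside 9.24 to 9.26. For 1434697_PM_at the spread was wider in CAG42 liver (SD 0.19, against 0.08 in WT liver). In cerebellum, brainstem and liver, CAG42 minus WT was -0.12, -0.10 and -0.01 for 1434697_PM_at, and 0.12, 0.27 and -0.05 for 1439122_PM_at. Tardbp averaged 9.80 ± 0.13 in CAG42 and 9.89 ± 0.13 in WT cerebellum, 8.99 ± 0.07 in CAG42 and 8.93 ± 0.10 in WT brainstem, and in liver 7.12 ± 0.12 in CAG42 and 7.06 ± 0.43 in WT mice (mean ± SD, n = 4 each). Over its 5 probe sets the differences between genotypes ran from -0.11 to 0.03 in cerebellum, -0.14 to 0.13 in brainstem and 0.05 to 0.19 in liver.

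A Tia1 probe set stood out for differences between mice rather than between genotypes. In cerebellum 1431708_PM_a_at read 8.42, 7.52, 7.63 and 7.52 in CAG42 replicates 1 to 4, against 7.66, 5.86, 7.80 and 8.50 in WT replicates 1 to 4. In brainstem it read 8.27, 7.53, 7.61 and 7.38 in CAG42 replicates 1 to 4, against 7.50, 5.21, 7.71 and 8.25 in WT replicates 1 to 4. In both tissues CAG42 replicate 1 and WT replicate 4 were the highest, WT replicate 2 was the lowest by far, and the other 5 lay within 7.38 and 7.80. In liver, where the values were 4.37 to 4.60 in CAG42 mice and 4.19 to 4.57 in WT mice, no such gap was seen. The genotype differences of this probe set, 0.32 ± 0.48 in cerebellum and 0.53 ± 0.48 in brainstem (SE), did not pass the test (limma unadjusted p = 0.519 and 0.287, adjusted p = 1 in both).

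**Figure D3:**
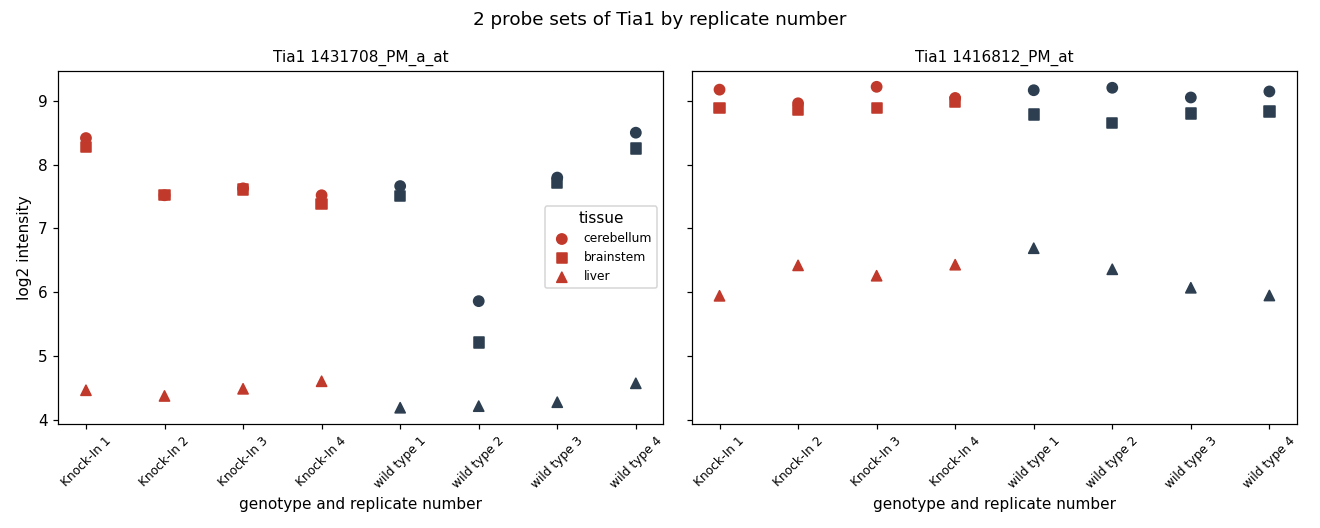
Log2 intensity of Tia1 probe sets 1431708_PM_a_at (left) and 1416812_PM_at (right) by genotype and replicate number, in cerebellum (circles), brainstem (squares) and liver (triangles), with CAG42 in red and WT in dark blue. On the left, cerebellum and brainstem of equal number lie together, from 5.21 and 5.86 in WT replicate 2 to 8.25 and 8.50 in WT replicate 4, while on the right the brain values lie between 8.65 and 9.22.

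The spread of 1431708_PM_a_at between mice of 1 group (pooled SD over the 4 brain groups) was 0.92, the 107th of 45037 probe sets, while the other 27 members had 0.06 to 0.32 and all probe sets a median of 0.14. The other Tia1 probe sets did not carry the pattern: over the 16 brain arrays, taken as deviations from each tissue's mean, their Pearson r with it ran from -0.27 to 0.48. Members of other genes ran from -0.57 (Ddx6 1439122_PM_at) to 0.76 (Tial1 1455676_PM_x_at), with 0.71 for Tardbp 1423723_PM_s_at. WT replicate 2, the lowest array of 1431708_PM_a_at in both brain tissues, was also the lowest for this Tial1 and this Tardbp probe set. It read 7.34 and 6.99 for Tial1 and 8.02 and 8.08 for Tardbp, in cerebellum and brainstem. How far the r values rest on that replicate was not tested. Over all probe sets, the one that followed 1431708_PM_a_at most closely was 1440305_PM_at, which the annotation does not name (r = 0.94). Among the 10 closest by size of r were Zfp40, Zfp994, Zfp945 and Zfp758, zinc finger genes that all lie on chromosome 17 (r = 0.87 to 0.89), and Rbm28 (r = 0.87) and Creb5 (r = -0.88), which lie on chromosome 6 as Tia1 does. These probe sets were chosen after the values had been seen, and the 16 arrays include 2 tissues that may come from the same mice, so the r values describe these arrays only.

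The second comparison was between tissues in WT mice, and here the genes differed widely. Of the 28 probe sets, 24 were called higher and 3 lower in cerebellum than in liver, and 23 higher and 3 lower in brainstem than in liver. Calls were common over the whole array (81.8% and 80.8% of all probe sets), so the number of calls by itself sets the members apart little. The size and direction differed more, since the median difference of the members was 1.26 for cerebellum minus liver and 1.34 for brainstem minus liver, against 0.08 and 0.16 over all probe sets. A mean log2 of 5 or more was reached by 27 of 28 members but by 20040 of all 45037 probe sets. Fitted without the dim ones, 26 members and 18118 probe sets were called for cerebellum minus liver. The medians were not compared among bright probe sets alone. Of the 28 members, 7 were called higher and 6 lower in cerebellum than in brainstem (background 47.0%), with a median of 0.12 over the members and -0.07 over all probe sets. In CAG42 mice 25, 24 and 10 of 28 were called in the same 3 comparisons (background 80.9%, 80.1% and 46.7%), and no probe set called in both genotypes went opposite ways. Centring each array on its median would lower the differences of cerebellum minus liver by 0.32 and those of brainstem minus liver by 0.41, so that differences of this size between brain and liver depend on the scaling.

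**Figure D4:**
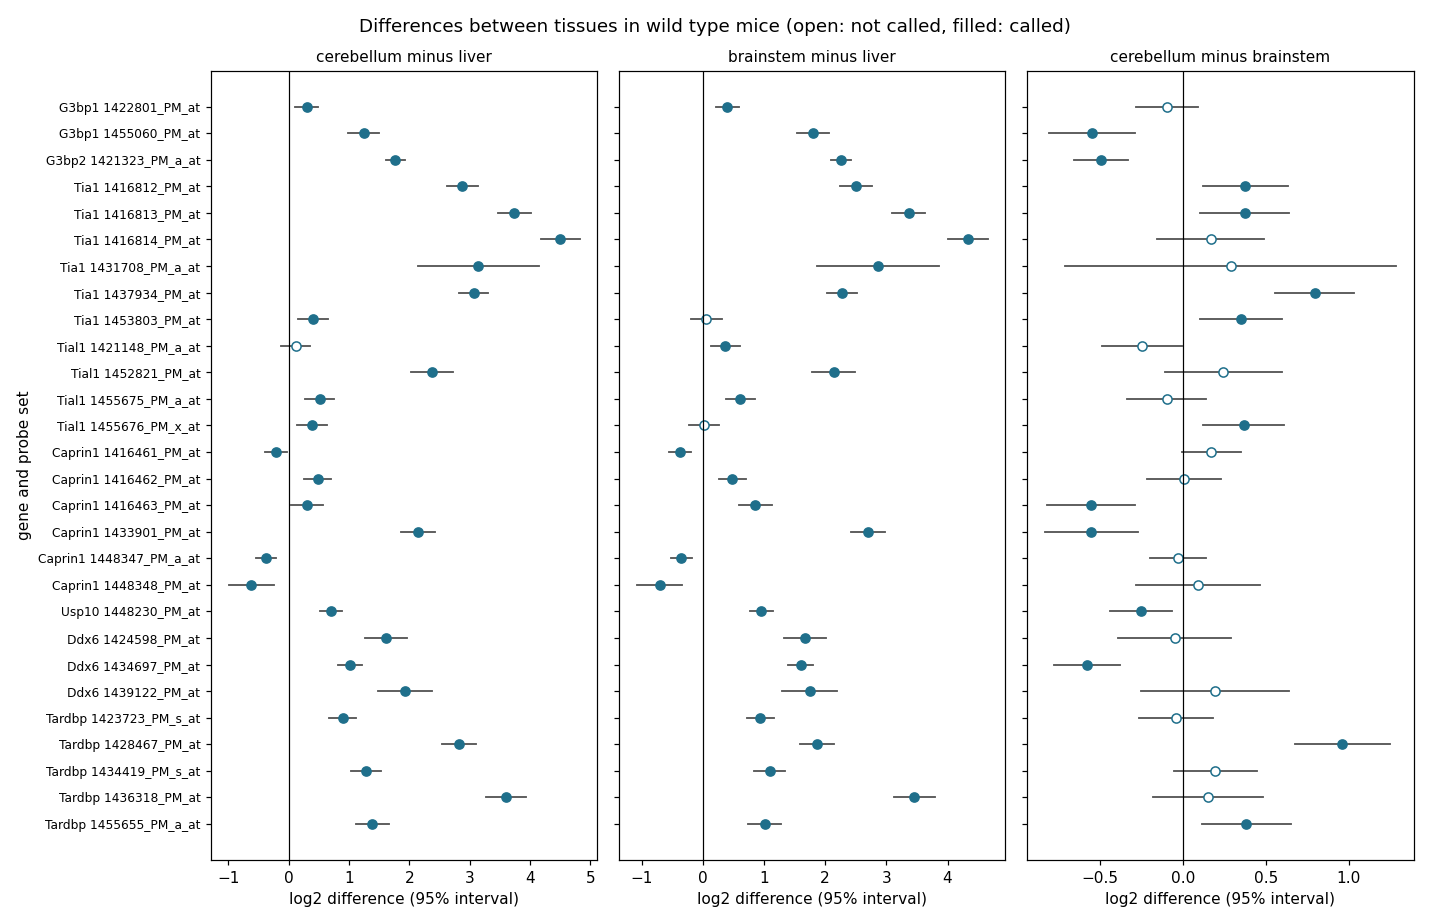
Log2 differences between tissues in WT mice for each of the 28 probe sets (rows), with 95% intervals from the limma fit (n = 4 arrays a group). Filled points were called and open points were not, and most points lie right of 0 in both comparisons with liver, up to 4.50 for Tia1, while 3 Caprin1 probe sets lie left of it.

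Tia1 had the largest difference among the 8 main probe sets between cerebellum and liver. In WT mice it read 9.17, 9.21, 9.05 and 9.15 in cerebellum and 8.78, 8.65, 8.80 and 8.83 in brainstem, against 6.69, 6.36, 6.07 and 5.95 in liver. Every brain value was above every liver value, 7.34-fold in cerebellum and 5.66-fold in brainstem (log2 differences 2.88 ± 0.12 and 2.50 ± 0.12, SE, limma adjusted p = 2.74e-16 and 4.43e-15). All 6 Tia1 probe sets were called higher in cerebellum than in liver, by 0.40 to 4.50, and 5 of 6 in brainstem. The WT liver means of 3 of them (3.24 to 3.75) were below the median of every WT liver array (4.13 to 4.25), and whether they were above background there was not tested. Cerebellum exceeded brainstem by 0.38 ± 0.12 (SE, limma adjusted p = 0.0151), a smaller step that in CAG42 mice was 0.20 and not called.

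Its relative Tial1 differed much less by its main probe set. In WT mice it averaged 8.66 ± 0.09 in cerebellum, 8.76 ± 0.07 in brainstem and 8.14 ± 0.35 in liver (SD, n = 4 each), or 1.43-fold and 1.53-fold above liver (log2 differences 0.51 ± 0.11 and 0.61 ± 0.11, SE, limma adjusted p = 0.000281 and 3.74e-05). With arrays centred on their medians these became 0.20 and 0.20 and were not called. WT liver replicate 1, at 8.61, lay among the brain values. The probe sets of Tial1 disagreed on size, since 1452821_PM_at gave 2.38 ± 0.17 for cerebellum minus liver and 1421148_PM_a_at gave 0.12 ± 0.12 (SE).

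Among the scaffolds, G3bp2 separated all 3 tissues, and the 2 probe sets of G3bp1 differed in this. In WT mice G3bp2 read 11.21, 11.27, 11.17 and 11.21 in cerebellum and 11.66, 11.67, 11.75 and 11.77 in brainstem, against 9.28, 9.44, 9.47 and 9.61 in liver. No tissue overlapped another, with brainstem 4.81-fold and cerebellum 3.40-fold above liver and a cerebellum minus brainstem difference of -0.50 ± 0.08 (SE, limma adjusted p = 1.12e-05). The main G3bp1 probe set read 8.38, 8.46, 8.55 and 8.46 in WT cerebellum and 8.61, 8.52, 8.55 and 8.58 in WT brainstem, against 8.41, 8.10, 8.0 and 8.15 in WT liver. Liver overlapped cerebellum through replicate 1, and the differences of 0.30 ± 0.09 and 0.40 ± 0.09 (SE, limma adjusted p = 0.00446 and 0.000363) became -0.02 and -0.01 once arrays were centred on their medians. The second G3bp1 probe set, at 5.25 to 5.73 in WT cerebellum, 5.84 to 6.06 in WT brainstem and 4.0 to 4.31 in WT liver, overlapped in no pair of tissues. It gave larger differences from liver, 1.24 ± 0.13 and 1.80 ± 0.13 (SE), and was lower in cerebellum than in brainstem, with a difference of -0.55 ± 0.13 (SE, limma adjusted p = 0.000784).

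Caprin1 was the exception to the brain direction, and its probe sets pointed both ways. In WT mice the main probe set read 9.93, 9.84, 10.03 and 9.91 in cerebellum and 10.06, 9.90, 10.00 and 9.88 in brainstem, against 10.45, 10.25, 10.22 and 10.31 in liver. Every liver value was the higher, by 1.30-fold over cerebellum and 1.27-fold over brainstem (log2 differences -0.38 ± 0.08 and -0.35 ± 0.08, SE, limma adjusted p = 0.000173 and 0.000421). By contrast 1433901_PM_at read 8.45, 8.28, 8.41 and 8.57 in WT cerebellum and 9.00, 8.86, 9.08 and 8.99 in WT brainstem, against 6.89, 6.15, 5.95 and 6.16 in WT liver. Of the 6 probe sets 3 were called higher and 3 lower in both brain tissues than in liver, and the mean over all 6 gave 0.29 and 0.43, opposite in sign to the main one. A single direction for Caprin1 between brain and liver could therefore not be given.

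Usp10 and Ddx6 were higher in the brain tissues. In WT mice Usp10 read 8.25, 8.34, 8.53 and 8.32 in cerebellum and 8.53, 8.55, 8.72 and 8.65 in brainstem, against 7.94, 7.49, 7.62 and 7.57 in liver, 1.63-fold and 1.94-fold above it (limma adjusted p = 1.65e-07 and 9.47e-10). Neither brain tissue overlapped liver. Its cerebellum minus brainstem difference of -0.25 ± 0.09 (SE, limma adjusted p = 0.0241) was no longer called without WT cerebellum replicate 1 or 4 (-0.22 and -0.24) or without WT brainstem replicate 3 or 4 (-0.22 and -0.24). After median centring it was -0.16 and not called. Ddx6 read 9.26, 9.73, 9.02 and 9.26 in WT cerebellum and 8.91, 9.52, 9.51 and 9.54 in WT brainstem, against 8.19, 7.74, 7.59 and 7.29 in WT liver. That is 3.06-fold and 3.17-fold above liver (limma adjusted p = 4.11e-09 and 2.44e-09), with no overlap, and all 3 of its probe sets gave this direction, by 1.01 to 1.93 and 1.60 to 1.74.

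Tardbp was the member that set cerebellum most apart from brainstem. In WT mice the main probe set read 10.03, 9.90, 9.72 and 9.90 in cerebellum and 9.04, 8.88, 8.81 and 8.98 in brainstem, against 7.48, 7.33, 6.55 and 6.88 in liver. The 3 tissues did not overlap, with cerebellum 1.95-fold above brainstem (log2 difference 0.96 ± 0.14, SE, limma adjusted p = 3.25e-06) and 7.09-fold above liver (limma adjusted p = 3.23e-15). The step between the brain tissues was not shared by the other probe sets, which gave -0.04 to 0.38, with 1 of those 4 called (1455655_PM_a_at). Against liver all 5 were higher in cerebellum, but by 0.90 to 3.60.

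Genes of related lists, drawn up by pathway or by disease, showed no call by genotype either. Of 41 measured genes for other stress granule proteins, 20 for P-body and decapping proteins, 13 for eIF2alpha kinases, phosphatases and their targets and 11 for ALS-linked proteins, read by their main probe sets, none passed the limma test between CAG42 and WT in cerebellum, brainstem or liver. An unadjusted p under 0.05 was reached in cerebellum, brainstem and liver by 0, 2 and 1 of the other stress granule genes, 0, 0 and 3 of the P-body genes, 1, 0 and 2 of the eIF2alpha genes and 1, 1 and 1 of the ALS-linked genes. Over all probe sets it was reached by 3.59%, 4.17% and 8.61% in the same 3 tissues. Eif4a1, the helicase of the cap-binding complex, averaged 10.93 in CAG42 and 10.62 in WT brainstem, a difference of 0.31 ± 0.11 (SE, limma unadjusted p = 0.0119, adjusted p = 1). Eif2ak4, the kinase GCN2, averaged 6.91 in CAG42 and 7.11 in WT cerebellum (-0.20 ± 0.09, SE, unadjusted p = 0.0338, limma adjusted p = 1). Dcp1b, a decapping cofactor, averaged 5.18 in CAG42 and 5.41 in WT liver (-0.23 ± 0.07, SE, unadjusted p = 0.00427, limma adjusted p = 0.293). Taf15, of the ALS-linked list, averaged 5.61 in CAG42 and 6.50 in WT brainstem (-0.89 ± 0.37, SE, unadjusted p = 0.0239, limma adjusted p = 1), and 6.33 in CAG42 and 7.06 in WT cerebellum (-0.72 ± 0.37, SE, unadjusted p = 0.0621, limma adjusted p = 1).

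Between tissues, most genes of the same lists were called against liver, as were most of all probe sets. For cerebellum minus liver in WT mice, 23 of 41 other stress granule genes were called higher and 10 lower, with a median of 0.63, and 15 of 20 P-body genes were called higher and 1 lower, with a median of 0.87, beside 44.4% higher, 37.3% lower and a median of 0.08 over all probe sets. The eIF2alpha list had 9 of 13 higher and 4 lower, and the ALS-linked list 9 of 11 higher and 2 lower. For cerebellum minus brainstem, 8 of the 41 other stress granule genes were called higher and 12 lower, with a median of -0.06. Over all probe sets 18.8% were called higher and 28.2% lower there, with a median of -0.07. Rbfox1, a neuronal splicing regulator, averaged 11.41 in WT cerebellum against 2.93 in WT liver, the liver value being below the median of every liver array. Elavl1, which encodes the mRNA-stabilising protein HuR, averaged 7.82 in WT cerebellum and 3.66 in WT liver, and Dcp2, the decapping enzyme, 9.46 and 6.34. The liver value of this Elavl1 probe set was likewise below the median of every liver array. Of the eIF2alpha kinases, Eif2ak2 (PKR) ran the other way, with 4.25 in WT cerebellum and 6.68 in WT liver, and Eif2ak3 (PERK) averaged 7.78 and 6.23. Ang, which encodes the secreted ribonuclease angiogenin, was the clearest liver gene of the ALS list, with 4.05 in WT cerebellum and 11.04 in WT liver. The cerebellum values of Ang and Eif2ak2 were below the median of every WT cerebellum array (4.50 to 4.54). Whether the values below array medians were above background was not tested.

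The genes most like each member over the 24 arrays mirrored the tissue differences. For G3bp2 the 3 closest main probe sets were those of Kazn, Tubb3 and Pygb (Pearson r = 0.996 each), for Tia1 those of Oip5os1, Prrc2b and Btbd3 (0.996 to 0.997), and for Tardbp those of Akap8, Bcl9 and Lhfp (0.994 to 0.995). Ddx6 was closest to Rc3h2, Tnrc6a and Tbcd (0.977 to 0.985), and Usp10 to Slc6a9, Eef1e1 and Tesk1 (0.984 to 0.986). Tial1 came closest to Tbc1d20, Tmem250-ps and Tmem41a (0.959 to 0.967), Caprin1 to Sppl2a, Foxq1 and Rnf213 (0.948 to 0.956), and G3bp1 to Dnajc12, Wbp1 and Cbfb (0.902 to 0.913). The points share 3 tissues, and a correlation across them follows the difference between brain and liver.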

How the data were processed

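Total RNA was labelled and hybridised to Affymetrix mouse expression arrays, 1 array per sample, and the authors deposited RMA-normalised log2 values (R 2.7.0 per the labels), which carry no depth; the number of arrays limits the precision. RMA equalises the arrays' distributions, so differences between tissues are relative to the rest of the array. The tests covered 45037 probe sets, without the 104 controls; 28898 were assigned to 1 gene, 551 to several and 15588 to none. The main probe set of a gene was the brightest over the 24 arrays. A limma fit (3.58.1, R 4.3.3) over all 6 groups gave all comparisons; it was tested on simulated data first. Single probe sets were also compared by exact permutation. Main probe sets stand for a gene where none is named. Named were member probe sets, Atxn2, per list up to 4 genes with the lowest p or the largest called tissue difference (a choice of these is printed), and the 3 genes most like each member. The members and lists were chosen with earlier results of these data known. Alternatives were the replicate block, a random block, array weights, normalisation within tissue, median centring, a filter on dim probe sets (mean under 5), a variance trend, a nested F, each tissue alone, the mean of a gene's members in place of the main probe set, tissue differences in CAG42 mice and leaving out each array. Same-numbered cerebellum and brainstem arrays of 1 genotype deviated together (r = 0.224 to 0.375), liver less so (r = 0.0417 to 0.285), and same-numbered arrays of the 2 genotypes did not (r = -0.299 to 0.214).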

Additional observations from a re-analysis of the deposited data

Results flagged for a closer look

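Each of the 28 probe sets was examined in each of the 6 groups for an array whose gap to the nearest other array was a large part of the group's range (Dixon's ratio). Of 168 groups, 13 held such an array, where chance flags about 1 in 20. The array stood above the others for G3bp2 1421323_PM_a_at in CAG42 liver (replicate 4, ratio 0.873), Tia1 1431708_PM_a_at in CAG42 cerebellum (replicate 1, 0.879), Tia1 1437934_PM_at in CAG42 cerebellum (replicate 3, 0.867) and G3bp1 1455060_PM_at in WT cerebellum (replicate 4, 0.839). Caprin1 gave 4 such cases: 1416461_PM_at (0.848) and 1416462_PM_at (0.860), both in CAG42 liver replicate 1, 1416462_PM_at in CAG42 brainstem replicate 4 (0.839) and 1433901_PM_at in CAG42 cerebellum replicate 2 (0.836). The array stood below the others for Tial1 1452821_PM_at in CAG42 liver (replicate 1, 0.885), Tial1 1421148_PM_a_at in WT brainstem (replicate 3, 0.905) and Tial1 1455676_PM_x_at in WT brainstem (replicate 2, 0.947). It was also below for Ddx6 1424598_PM_at in replicate 1 of both CAG42 brainstem (0.919) and WT brainstem (0.960).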

How the results depend on the processing

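No probe set of the 8 genes was called between CAG42 and WT under any alternative, except 2 in liver without WT liver replicate 1 (0 to 2 over the arrays left out in turn). The replicate block left the members called at 0 in each tissue and at 27, 26 and 13 between tissues, and changed no other member's call. Over all probe sets the calls between genotypes were 20 in cerebellum (9 to 32 over the alternatives, 13 with the replicate block), 7 in brainstem (1 to 25, 5 with the block) and 66 in liver (0 with liver fitted alone to 2878 without WT replicate 1, 28 with the block). Same-numbered mice of the 2 genotypes are not known to be paired. Over all alternatives 21 to 27, 24 to 26 and 10 to 15 members were called for cerebellum minus liver, brainstem minus liver and cerebellum minus brainstem. Differences of the main probe sets changed sign in 33 of 792 cases between genotypes, none of them called, and in 11 of 768 between tissues; the cause was not tested. After median centring the changed values were -0.0160 and -0.0099 for G3bp1 (cerebellum and brainstem minus liver), 0.0411 for Ddx6 and 0.0628 for Caprin1 (cerebellum minus brainstem), 0.0091 for Usp10 (CAG42 minus WT, brainstem) and 0.0322 for Tia1 (liver). Averaging all probe sets of a gene, they were 0.2873 and 0.4339 for Caprin1 (cerebellum and brainstem minus liver), 0.0645 for Tial1 (cerebellum minus brainstem), and, for CAG42 minus WT, 0.0623 for Tia1 in cerebellum, -0.0938 for G3bp1 in brainstem and -0.0998 for Caprin1 in liver. With array weights they were 0.0053 for G3bp1 in cerebellum, 0.0035 for Usp10 in brainstem, and 0.1091 for Tia1 and 0.0660 for Ddx6 in liver. Normalisation within tissue gave 0.0038 for G3bp1 in cerebellum and -0.0137 for Tardbp in liver, and cerebellum minus brainstem of Ddx6 was 0.0844 in CAG42 mice. Leaving out each array in turn, CAG42 minus WT ran in cerebellum from -0.0820 to 0.0040 for Tia1, -0.0378 to 0.0188 for G3bp1, -0.1539 to 0.0819 for Ddx6 and -0.0268 to 0.0651 for Usp10. In brainstem it ran from -0.0012 to 0.0649 for G3bp2, -0.0323 to 0.0307 for Usp10 and -0.0200 to 0.0424 for Caprin1. In liver it ran from -0.1093 to 0.1378 for Tia1, -0.1994 to 0.1008 for Ddx6, -0.1093 to 0.2003 for Tardbp and -0.0222 to 0.0983 for Caprin1. Cerebellum minus brainstem ran from -0.2044 to 0.0475 for Ddx6 and from -0.0643 to 0.0026 for Caprin1.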
